A study of Homo sapiens with 10 samples.

Results

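A group of genes that act at broken DNA ends, 10 of 25370 in the table, were described in the ovarian cancer line PEO1 and in 4 drug-resistant clones derived from it. They were chosen by name for their role in end resection and in the end joining that follows it: MRE11A, RAD50, NBN, RBBP8, EXO1, DNA2, POLQ, RAD52, LIG3 and XRCC1. All 10 were found in the table and all 10 passed the filter on low counts. PEO1 is an established line from a high grade serous ovarian carcinoma that lacks functional BRCA2. Its label gives the genotype as WT, which here marks the parental line that had not been selected. The clones ABTr1, ABTr2, ABTr3 and ABTr4 carry the label Veliparib resistant, had grown for 6 months in veliparib (an inhibitor of the enzyme PARP1) at 40 µM, and spent the last 4 to 5 days before harvest without it. All 5 groups therefore share the PEO1 background and one culture medium, and each resistant group is a single clone. Polyadenylated RNA was sequenced from 2 libraries per group, numbered 1 and 2, and the labels leave unsaid how the cultures behind them were kept apart. The p-values thus rest on the spread of these libraries, which may be technical. The 10 libraries held between 20640602 and 55488566 counted reads.

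A double-strand break is first held by the MRN complex, made of the nuclease MRE11A, the ATPase RAD50 and the adaptor NBN, which also recruits the kinase ATM. RBBP8 (CtIP) switches on the nuclease activity of MRE11A, so that the 5′ strand is cut back, and the exonuclease EXO1 or the nuclease and helicase DNA2 then extends the single-stranded tail. A resected end can be copied by homologous recombination, which needs BRCA2. Where that fails, RAD52 can anneal long repeats, or the polymerase POLQ can pair short stretches of microhomology that are sealed by the ligase LIG3 with its scaffold XRCC1. Cells without BRCA2 are known to lean on POLQ.

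Of the other cell types, the fibroblast markers DCN, LUM and COL3A1 had 0 reads in every library, and the leukocyte markers PTPRC and CD3E together reached at most 0.236 CPM (counts scaled to library size with TMM factors). The epithelial label was checked with 6 markers, whose summed level was 6322 and 9496 CPM in the parental libraries and 1965 to 2472 CPM in the clone libraries. Of these, 5 passed as lower in the clones, and PAX8 did not (edgeR log2 fold change 0.10, adjusted p = 0.81). The endothelial pair PECAM1 and CDH5 summed to 15.1 and 61.8 CPM in parental and to 0.452 to 14.6 CPM in the clones, and the mesothelial pair CALB2 and MSLN to 76.6 and 201.3 CPM and to 40.1 to 183.2 CPM. The part of these differences in the results below was not tested.

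The stretches upstream of 4 genes that differed between libraries numbered 1 and 2 are shown. EXO1 and POLQ differed in one direction and RAD52 and XRCC1 in the other. LIG3, MRE11A and DNA2 also differed, in the direction of EXO1 and POLQ, and are not printed. The stretches shown are RefSeq sequences on GRCh38.p14, not the hg19 build of the counts. Of the 10 genes, 8 matched the promoter table, MRE11A under its current symbol MRE11. NBN and DNA2 did not. Each window ran from 250 bases before to 50 bases after a start, and the first listed window of each gene is used here. Capitals mark matches on either strand to 5 motifs. These were the E2F core GCGGGAA, the E2F motif TTTCGCGC, the cell cycle homology region TTTGAA, the CCAAT box CCAAT and the GC box GGGCGG. Among the 35116 windows of all genes, these letters occurred in 6.55%, 0.515%, 15.2%, 34.6% and 45%, in that order.
EXO1 upstream, chr1:241847954-241848203, plus strand: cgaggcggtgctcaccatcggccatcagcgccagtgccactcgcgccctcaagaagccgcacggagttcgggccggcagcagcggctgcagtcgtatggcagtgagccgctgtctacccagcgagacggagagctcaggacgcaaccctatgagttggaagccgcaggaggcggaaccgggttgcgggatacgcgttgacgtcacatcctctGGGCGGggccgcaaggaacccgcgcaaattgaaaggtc
EXO1 start, chr1:241848197-241848226, plus strand: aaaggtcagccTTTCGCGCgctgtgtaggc
POLQ upstream, chr3:121545989-121546238, minus strand: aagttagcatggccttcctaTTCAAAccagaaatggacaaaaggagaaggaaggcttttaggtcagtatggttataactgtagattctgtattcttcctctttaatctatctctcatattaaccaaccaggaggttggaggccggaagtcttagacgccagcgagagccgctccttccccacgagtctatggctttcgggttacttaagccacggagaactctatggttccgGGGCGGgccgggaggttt
POLQ start, chr3:121545956-121545985, minus strand: TTTGAAgactgGCGGGAAgatgtccgcagc
RAD52 upstream, chr12:949695-949944, minus strand: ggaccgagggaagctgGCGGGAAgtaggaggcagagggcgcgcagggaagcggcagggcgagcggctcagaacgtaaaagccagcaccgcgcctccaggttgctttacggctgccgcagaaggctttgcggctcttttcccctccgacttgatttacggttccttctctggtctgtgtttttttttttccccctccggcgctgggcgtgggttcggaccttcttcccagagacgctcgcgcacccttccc
XRCC1 upstream, chr19:43575528-43575777, minus strand: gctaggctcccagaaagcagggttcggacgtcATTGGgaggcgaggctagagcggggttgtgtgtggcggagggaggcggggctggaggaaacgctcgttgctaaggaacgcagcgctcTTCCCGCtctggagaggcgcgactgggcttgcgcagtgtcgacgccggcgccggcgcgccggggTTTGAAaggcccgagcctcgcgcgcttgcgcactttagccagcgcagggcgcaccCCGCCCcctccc
The E2F motif TTTCGCGC began 5 bases after the EXO1 start. POLQ had TTTGAA at position 4 and GCGGGAA at position 15 after its start, with a further TTTGAA on the reverse strand at -230. XRCC1 also held GCGGGAA, on the reverse strand at position -131, and TTTGAA at -67. RAD52 held GCGGGAA at -234. So among these 4 windows the E2F core and TTTGAA occurred on both sides of the split between the libraries, and TTTCGCGC in EXO1. The windows of LIG3 and MRE11A held neither E2F motif and no TTTGAA. Of the motifs searched, RAD50 and LIG3 had the GC box, RBBP8 the GC box in both of its windows, and MRE11A the CCAAT and GC boxes. The windows of these 4 genes and the second windows of EXO1 and RAD52, which had no match, are not printed. A match is a description of letters and not of a bound factor.

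Levels between genes were compared as RPKM, which divides by the deposited gene length. In parental PEO1 the highest mean was that of RBBP8 at 28.2 ± 2.44 RPKM (SD, n = 2), the 82.1st percentile of tested genes, followed by XRCC1 at 22.1 ± 4.12, EXO1 at 21.0 ± 13.1 and NBN at 18.9 ± 6.19. MRE11A stood at 13.7 ± 2.58, LIG3 at 10.2 ± 3.73 and RAD50 at 8.86 ± 2.11. The lowest were POLQ at 6.62 ± 2.80, DNA2 at 5.58 ± 3.04 and RAD52 at 3.72 ± 1.73, the 43.4th percentile. From XRCC1 down, each gene differed from the next in this order by less than the larger of their SDs, while RBBP8 stood above XRCC1 by more than that. In the clones, where the mean is over 4 clone means, the order was RBBP8 23.7 ± 3.84 (SD, n = 4), EXO1 19.8 ± 5.68, MRE11A 17.7 ± 3.64, XRCC1 14.2 ± 2.27, NBN 12.4 ± 1.94, LIG3 8.52 ± 1.14, POLQ 6.76 ± 2.06, DNA2 6.21 ± 1.49, RAD50 5.54 ± 0.32 and RAD52 5.15 ± 1.47 RPKM. Here NBN stood above LIG3 by more than the larger SD, and the other neighbours did not differ by that much. The mean of MRE11A was above those of NBN and XRCC1 in the clones and below both in parental.

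**Figure D1:**
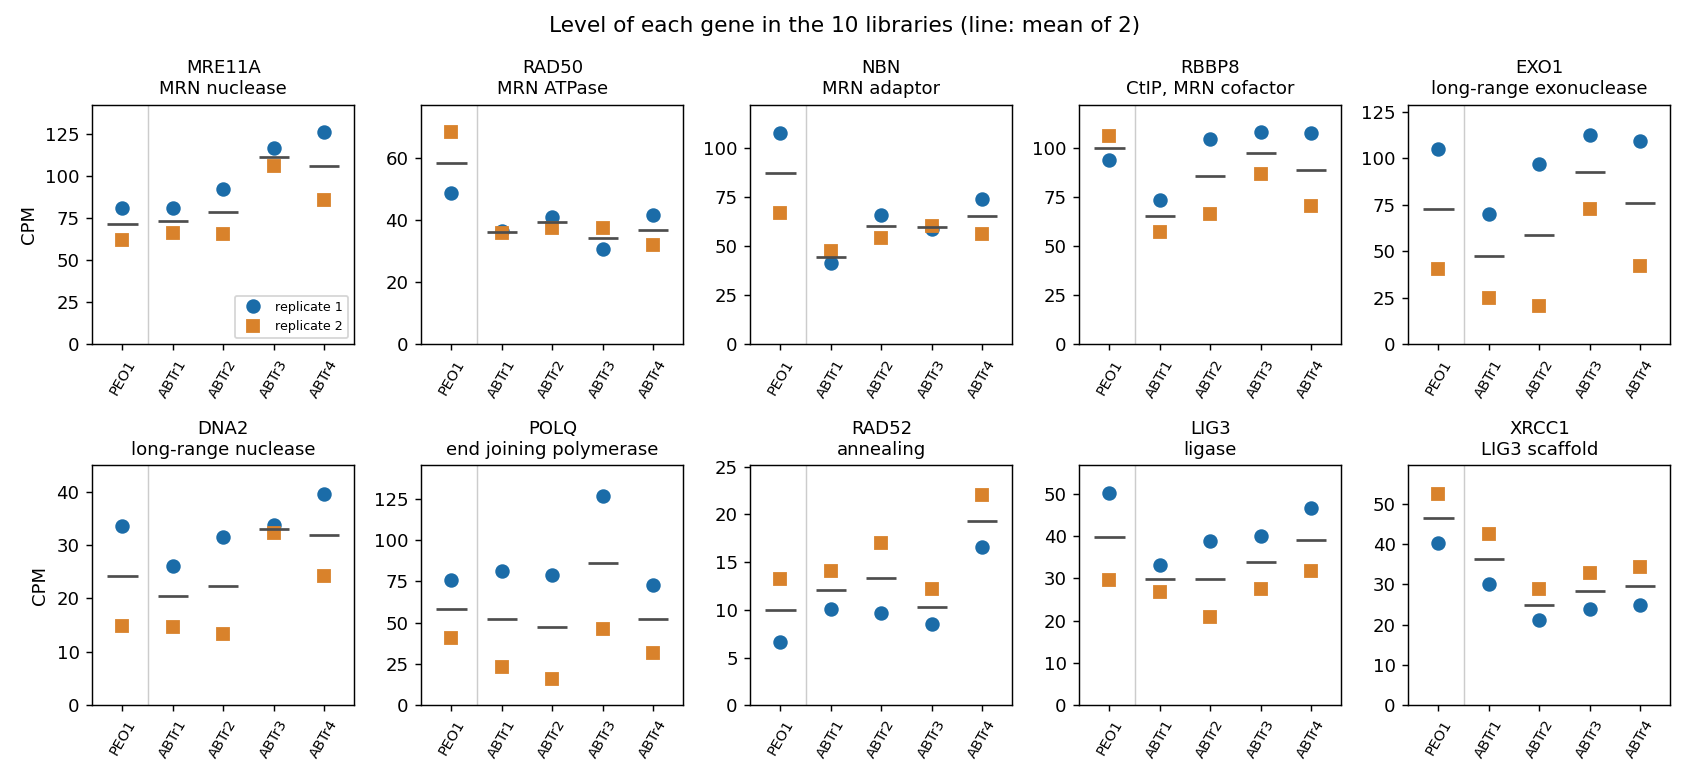
Level of each of the 10 genes (vertical axis, CPM from 0) in the 5 groups (horizontal axis), with circles for libraries numbered 1, squares for libraries numbered 2 and a line at the mean of the 2. All 8 clone libraries lie below both parental libraries for RAD50, while for EXO1 and POLQ the circle lies above the square in every group.

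Against parental PEO1, RAD50 was lower in the clones, by 1.60-fold in the mean of the 4, and no gene of the 10 passed as higher. NBN, its partner in the MRN complex, and XRCC1, the LIG3 scaffold, were lower by 1.52-fold and 1.58-fold. Both passed when the model also held a term for the replicate number (the replicate block). Without the block the RAD50 call lay close to the threshold (edgeR adjusted p = 0.049). That call was lost with limma-voom, without the filter on low counts and with the libraries of each clone summed. MRE11A, the nuclease of the complex, and RAD52 had higher fitted levels that did not pass. EXO1, DNA2 and POLQ, the long-range nucleases and the end joining polymerase, had no difference larger than the spread between libraries. Without the block 1 of 10 genes passed as lower and 0 as higher at an edgeR adjusted p under 0.05, beside 8.79% lower and 7.17% higher of all 16490 genes tested. With the block, 3 of 10 were lower and 0 higher, beside 18.2% and 16.3%. Scaling by library size alone changed this balance: with the block XRCC1 then passed as lower and MRE11A and RAD52 as higher (edgeR adjusted p = 0.0085 and 0.017), while RAD50 and NBN did not pass. The same scaling moved the median of all genes without the block from 0.02 to 0.26. In the scaling used here, the median log2 fold change of the 10 was -0.19 without and -0.23 with the block, where all genes had 0.02 in both.

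**Figure D2:**
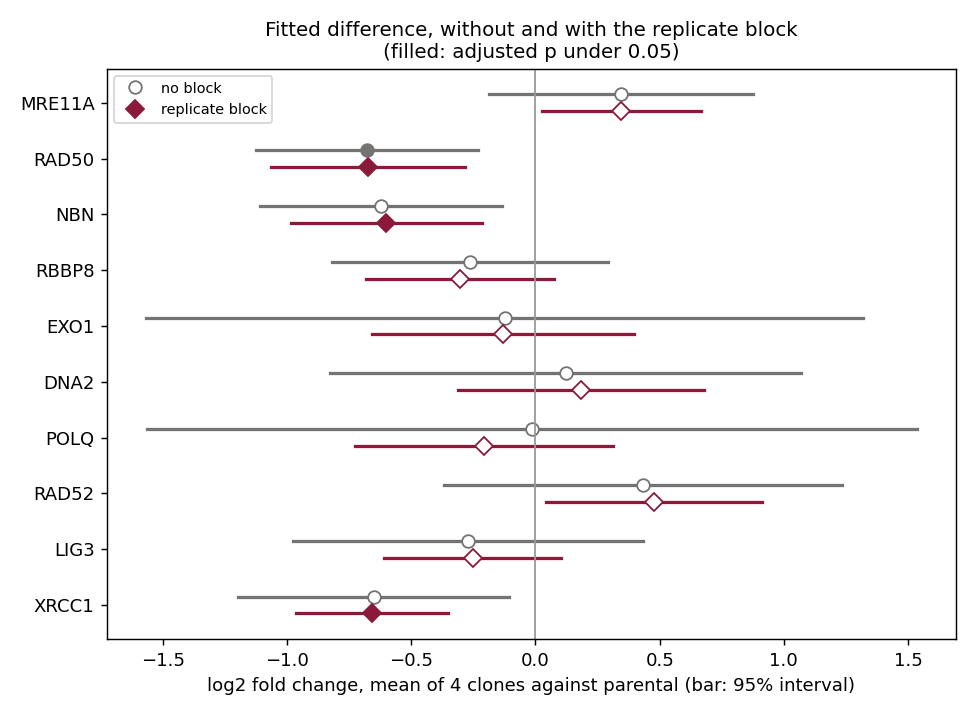
Fitted log2 fold change of the mean of the 4 clones against parental (horizontal axis) for each gene, without (circles) and with (diamonds) the replicate block, with 95% intervals as bars and filled symbols at an adjusted p under 0.05. RAD50 is filled in both fits, NBN and XRCC1 in the blocked fit, and the intervals of EXO1, DNA2 and POLQ are much shorter with the block.

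RAD50 (chr5:131892616-131980313 on hg19, plus strand) tethers the ends as the ATPase of MRN. It had 48.7 and 68.3 CPM in the parental libraries 1 and 2, 36.4 and 35.8 in ABTr1, 41.1 and 37.4 in ABTr2, 30.8 and 37.5 in ABTr3 and 41.6 and 32.03 in ABTr4. All 8 clone libraries lay below both parental libraries. The share of all genes that separate in this way was not counted, here or in the paragraphs below. In RNA from whole cultures, fewer cells that express a gene and less RNA per cell cannot be told apart. The fitted log2 fold change was -0.68 ± 0.20 (SE), with an edgeR adjusted p of 0.049, and -0.67 ± 0.18 with an adjusted p of 0.015 with the block. Among the fits that left out 1 library, the call without the block held only without PEO1 replicate 1 (edgeR adjusted p = 0.042), and was lost without any one of the other 9, the farthest being PEO1 replicate 2 (-0.42, adjusted p = 0.37). With the block the only library whose absence ended the call was PEO1 replicate 2 (-0.38, edgeR adjusted p = 0.25), and it was also lost with scaling by library size alone (-0.43, adjusted p = 0.059; 0.13 without the block).

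NBN (chr8:90945564-90996899, minus strand) brings ATM to the break. Its levels were 107.4 and 66.9 CPM in parental, 41.2 and 47.4 in ABTr1, 66.0 and 54.2 in ABTr2, 58.8 and 60.04 in ABTr3 and 73.7 and 56.3 in ABTr4. Each clone library lay below the parental library of the same number, and 7 of 8 lay below both. The exception was ABTr4 replicate 1, between the 2 parental values. The log2 fold change was -0.62 ± 0.21 without the block (edgeR adjusted p = 0.084) and -0.60 ± 0.17 with it (adjusted p = 0.023). The blocked call was lost without PEO1 replicate 1 (-0.35, edgeR adjusted p = 0.26), ABTr3 replicate 1 (adjusted p = 0.053) or ABTr4 replicate 2 (adjusted p = 0.051), and with scaling by library size alone (-0.37, adjusted p = 0.12).

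MRE11A (chr11:94150469-94227040, minus strand) is the nuclease of the complex. It had 81.4 and 62.3 CPM in parental, 81.2 and 66.2 in ABTr1, 92.7 and 65.5 in ABTr2, 117.2 and 106.2 in ABTr3 and 126.5 and 86.2 in ABTr4. Both libraries of ABTr3 and of ABTr4 lay above both parental libraries, while ABTr1 and ABTr2 overlapped with parental. In the mean of the clones the log2 fold change was 0.35 ± 0.23 (edgeR adjusted p = 0.36), and 0.35 ± 0.14 with the block (adjusted p = 0.088), so it did not pass.

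RAD50 and NBN had lower fitted levels in the mean of the clones, and MRE11A had a higher one that did not pass. Within a library the RPKM ratio of MRE11A to RAD50 was 2.10 and 1.15 in the parental libraries and 2.20 to 4.78, with a median of 3.11, in the clones, all 8 above both parental values. The ratio of MRE11A to NBN was 0.668 and 0.82 in parental and 1.06 to 1.75 in the clones, again above both in all 8. The ratio of NBN to RAD50 overlapped, with 1.4 and 3.15 in parental and 1.62 to 2.72 in the clones. These ratios compare levels within a library and carry no p-value, since they follow from the single-gene differences above.

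**Figure D3:**
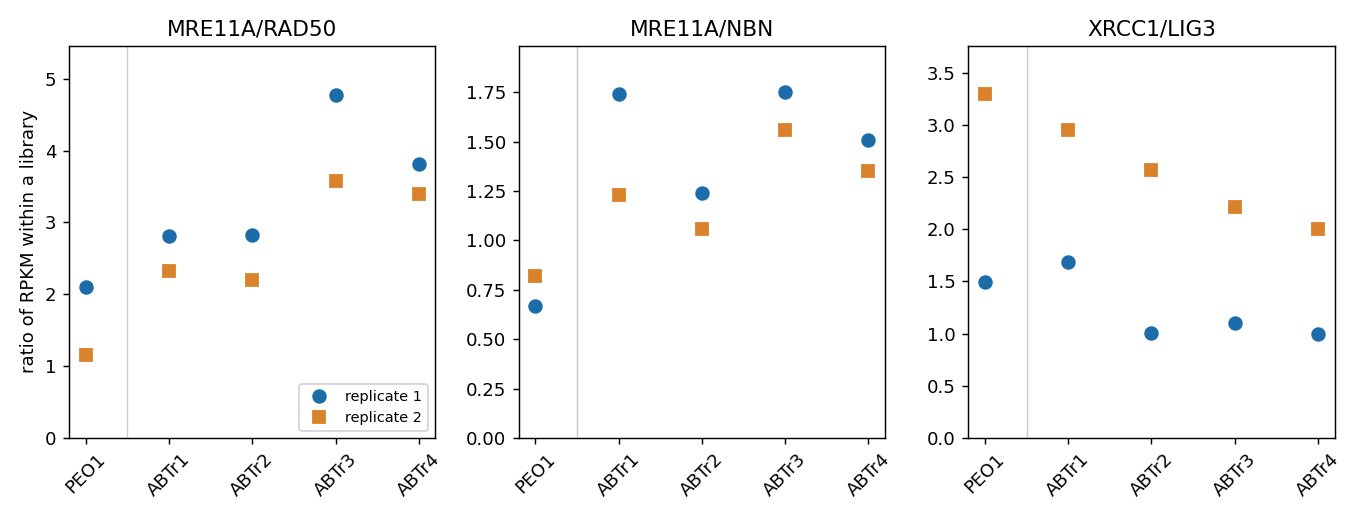
Ratio of RPKM of MRE11A to RAD50, MRE11A to NBN and XRCC1 to LIG3 within each library (vertical axis, from 0) in the 5 groups, with circles for libraries numbered 1 and squares for libraries numbered 2. The first 2 ratios are above both parental values in all 8 clone libraries, and the third is below both in 3 of 8.

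RBBP8 (chr18:20513295-20606449, plus strand) is CtIP, the cofactor that starts resection. It had 94.1 and 106.3 CPM in parental, 73.5 and 57.2 in ABTr1, 104.8 and 66.3 in ABTr2, 108.4 and 86.7 in ABTr3 and 107.4 and 70.4 in ABTr4. ABTr1 lay below parental in both libraries and the other clones overlapped with it. The mean difference of -0.26 ± 0.24 on the log2 scale did not pass (edgeR adjusted p = 0.51, and 0.20 with the block). The table also lists MIR4741 inside RBBP8, with 0 reads.

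Long-range resection is carried by EXO1 (chr1:242011493-242053241, plus strand) and DNA2 (chr10:70173821-70231878, minus strand). EXO1 had 104.7 and 40.4 CPM in parental, 70.1 and 25.1 in ABTr1, 97.1 and 20.4 in ABTr2, 112.4 and 72.6 in ABTr3 and 109.2 and 42.3 in ABTr4. DNA2 had 33.5 and 14.9 CPM in parental, 26.1 and 14.7 in ABTr1, 31.5 and 13.3 in ABTr2, 33.8 and 32.2 in ABTr3 and 39.5 and 24.2 in ABTr4. Clones and parental overlapped for both, and of the 8 pairs with the same number 4 were above and 4 below parental for each gene. With the block the log2 fold change of EXO1 was -0.13, with a 95% interval of -0.66 to 0.40 (edgeR adjusted p = 0.70), and that of DNA2 was 0.18, from -0.31 to 0.68 (adjusted p = 0.56). Without it the interval of EXO1 ran from -1.57 to 1.32.

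POLQ (chr3:121150273-121264853, minus strand), the polymerase of microhomology end joining, had 75.6 and 40.7 CPM in parental, 81.0 and 23.0 in ABTr1, 78.8 and 15.7 in ABTr2, 126.3 and 46.1 in ABTr3 and 72.5 and 31.3 in ABTr4. ABTr3 had the highest level under both numbers, and the groups overlapped. With the block the log2 fold change was -0.21, with a 95% interval of -0.72 to 0.31 (edgeR adjusted p = 0.53). Without the block it was -0.01, from -1.56 to 1.54 (adjusted p = 0.99).

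RAD52 (chr12:1021255-1058863, minus strand), which anneals single strands, was the gene with the fewest reads, 269 to 772 per library. Its levels were 6.67 and 13.2 CPM in parental, 10.0 and 14.1 in ABTr1, 9.65 and 17.1 in ABTr2, 8.46 and 12.2 in ABTr3 and 16.6 and 22.1 in ABTr4. Both ABTr4 libraries lay above both parental ones, and 7 of 8 clone libraries lay above the parental library of the same number. The mean difference of 0.43 ± 0.35 on the log2 scale did not pass (edgeR adjusted p = 0.45), nor did 0.48 ± 0.20 with the block (adjusted p = 0.084).

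XRCC1 (chr19:44047464-44079730, minus strand) is the scaffold that keeps LIG3 stable and brings it to breaks. It had 40.3 and 52.5 CPM in parental, 30.2 and 42.5 in ABTr1, 21.1 and 28.8 in ABTr2, 23.8 and 32.8 in ABTr3 and 24.9 and 34.3 in ABTr4. All 8 clone libraries were below the parental library of the same number, and 7 were below both. ABTr1 replicate 2 was the exception. The log2 fold change was -0.65 ± 0.24 without the block (edgeR adjusted p = 0.10) and -0.66 ± 0.14 with it (adjusted p = 0.0047). The blocked call was kept without any one of the 10 libraries (edgeR adjusted p 0.011 to 0.021).

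LIG3 (chr17:33307517-33332088, plus strand), the ligase itself, had 50.1 and 29.6 CPM in parental, 33.1 and 26.8 in ABTr1, 38.8 and 20.8 in ABTr2, 40.1 and 27.6 in ABTr3 and 46.6 and 31.8 in ABTr4. It was below the parental library of the same number in 7 of 8 clone libraries, but the groups overlapped. The log2 fold change of -0.27 ± 0.31 did not pass (edgeR adjusted p = 0.60, and 0.25 with the block). The RPKM ratio of XRCC1 to LIG3 was 1.49 and 3.30 in parental and 0.991 to 2.95 in the clones, and 3 of 8 lay below both parental values.

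In single clones, 0 of the 10 genes passed without the block in each of ABTr1, ABTr2, ABTr3 and ABTr4, beside 9.77%, 6.11%, 7.37% and 9.71% of all genes in either direction. At an unadjusted edgeR p under 0.05 the counts were 2, 1, 1 and 1, beside 26.9%, 22.7%, 22.9% and 25.9% of all genes. DESeq2 called 1, 0, 1 and 0 (NBN in ABTr1 and RAD50 in ABTr3), and limma-voom 0 in each. The shares of all genes that DESeq2 and limma-voom called were not counted, here or below. With the block, ABTr1 had 3 of 10 lower and 0 higher, beside 14.5% lower and 15.5% higher of all genes. ABTr2 had 1 lower and 0 higher, beside 10.8% and 11.3%. ABTr3 had 2 lower and 1 higher, beside 11.6% and 11%, and ABTr4 had 1 lower and 2 higher, beside 13.9% and 13.1%. Which genes passed therefore differed between the clones, but the differences among the clones are tested separately below.

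With the block ABTr1 was lower in RAD50 (log2 fold change -0.69, edgeR adjusted p = 0.047), NBN (-0.94, 0.013) and RBBP8 (-0.65, 0.049). The RAD50 and RBBP8 calls in ABTr1 were each lost when any 1 library other than PEO1 replicate 1 was left out (edgeR adjusted p up to 0.26 and 0.37), and the NBN call without ABTr1 replicate 1 (0.14). XRCC1 was lower in ABTr2 (-0.90, edgeR adjusted p = 0.0070), ABTr3 (-0.72, 0.018) and ABTr4 (-0.65, 0.024), and in ABTr1 it stood at -0.36 (0.16). Each of these XRCC1 calls was lost without either library of its own clone (edgeR adjusted p 0.059 to 0.16), which leaves that clone 1 library, and the one in ABTr4 also without PEO1 replicate 2 (0.058). RAD50 was lower in ABTr3 (-0.77, edgeR adjusted p = 0.038), and its values in ABTr2 (-0.57, 0.11) and ABTr4 (-0.66, 0.061) did not pass. The ABTr3 call of RAD50 survived leaving out PEO1 replicate 1 or either library of ABTr4 and was lost for the other 7 (edgeR adjusted p up to 0.23).

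MRE11A was higher in ABTr3 (log2 fold change 0.65, edgeR adjusted p = 0.026) and ABTr4 (0.56, 0.042), against 0.04 (0.88) in ABTr1 and 0.13 (0.64) in ABTr2. The call in ABTr4 was lost without any one of the 10 libraries (edgeR adjusted p 0.051 to 0.28), and that in ABTr3 without PEO1 replicate 1 (0.082), PEO1 replicate 2 (0.093), ABTr2 replicate 2 (0.055) or ABTr3 replicate 2 (0.19). RAD52 was higher in ABTr4 by 2.03-fold (1.02, edgeR adjusted p = 0.011), a call lost without PEO1 replicate 1 (0.060) or ABTr4 replicate 1 (0.10). Each clone thus had its own short list, with XRCC1 the one gene that passed in 3 of 4.

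Differences among the 4 clones were tested directly, and 0 of 10 genes passed without the block (edgeR adjusted p 0.99 for each, and 0 at an unadjusted p under 0.05, where all genes had 5.3%), beside 0.00606% of all genes. With the block 0 of 10 passed again, beside 0.843%, and 5 had an unadjusted p under 0.05, beside 20.6% of all genes. The lowest edgeR adjusted p was 0.14, for EXO1, whose highest and lowest clone differed by 1.16 on the log2 scale, followed by MRE11A at 0.15 and RAD52 at 0.16. DESeq2 and limma-voom also called 0. So the separate lists of the clones are not shown to differ from one another.

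For 7 of the 10 genes, all but RAD50, NBN and XRCC1, the difference fitted with the block was larger in size between libraries numbered 1 and 2 than between clones and parental. This comparison was added after the data had been seen, and what the numbers stand for is not given. In the blocked fit 5 of 10 genes were higher in the libraries numbered 1 and 2 were lower, beside 14.8% and 15.5% of all genes. POLQ was higher by 2.90-fold (log2 fold change 1.54 ± 0.19, edgeR adjusted p = 0.0010), EXO1 by 2.67-fold (1.42 ± 0.20, 0.0014), DNA2 by 1.74-fold (0.80 ± 0.18, 0.0089), LIG3 by 1.53-fold (0.61 ± 0.13, 0.0073) and MRE11A by 1.30-fold (0.38 ± 0.11, 0.031). Each of these 5 was higher in the library numbered 1 in 5 of 5 groups. RAD52 (-0.64 ± 0.15, edgeR adjusted p = 0.011) and XRCC1 (-0.45 ± 0.12, 0.016) were lower in the library numbered 1 in 5 of 5 groups. RAD50 (-0.05, edgeR adjusted p = 0.84), NBN (0.22, 0.27) and RBBP8 (0.36, 0.078) did not pass.

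The size varied by group. For EXO1 the log2 difference between the libraries was 1.36 in parental, 1.46 in ABTr1, 2.22 in ABTr2, 0.63 in ABTr3 and 1.36 in ABTr4. For XRCC1 it lay close together, from -0.49 to -0.38. The proliferation genes moved alongside: 11 of 12 were higher in the libraries numbered 1 and 0 lower, with a median of 0.81, where all genes had -0.01. MKI67, a marker of cycling cells, was higher by 3.02-fold (edgeR adjusted p = 0.00067) and PCNA, the replication clamp, by 1.78-fold (0.0080). Summed over the list, the libraries numbered 1 and 2 had 4520 and 2021 CPM in parental, 3120 and 1576 in ABTr1, 3570 and 1369 in ABTr2, 4323 and 3074 in ABTr3 and 4083 and 2325 in ABTr4. The part of these proliferation levels in the differences between numbers was not tested. Without 1 library at a time the EXO1, POLQ, DNA2 and LIG3 calls were kept. The RAD52 call was lost without either ABTr2 library (edgeR adjusted p 0.055 and 0.060), the XRCC1 call without any library of ABTr2 or ABTr4 (0.064 to 0.069), and the MRE11A call without any of ABTr1, ABTr2 or ABTr4 (0.058 to 0.13). The number of genes that passed between the numbers thus fell without either ABTr2 library.

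**Figure D4:**
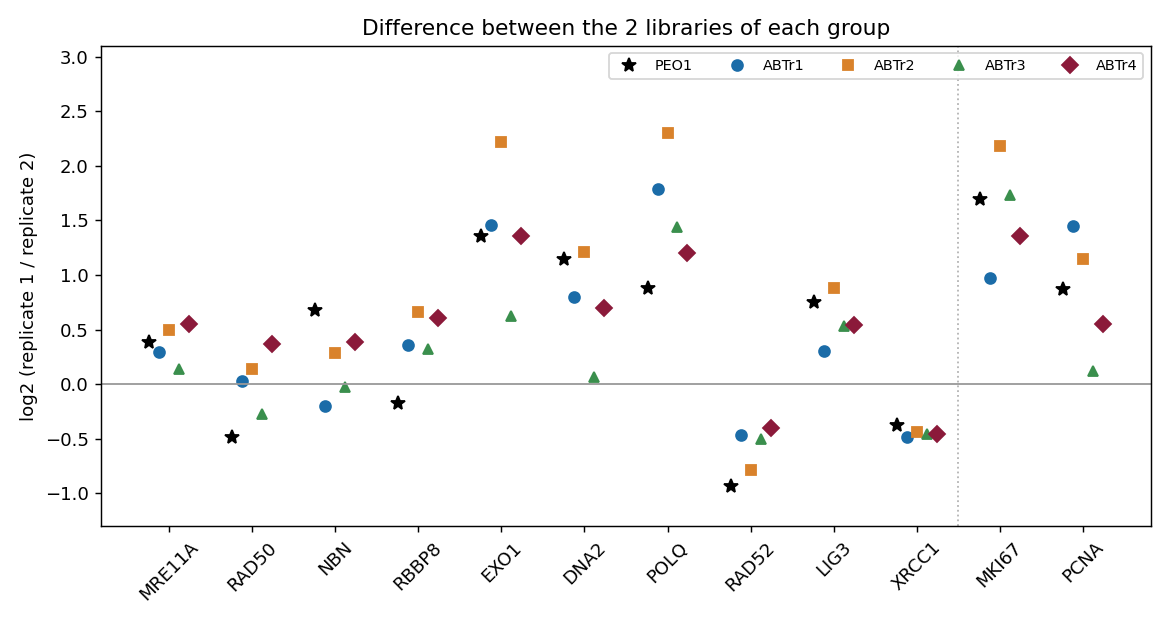
Log2 ratio of library 1 to library 2 of the same group (vertical axis, with 0.5 CPM added) for the 10 genes and, right of the dotted line, MKI67 and PCNA, with one symbol per group. EXO1, DNA2, POLQ and LIG3 lie above 0 in all 5 groups, as MKI67 and PCNA do, and RAD52 and XRCC1 lie below 0 in all 5.

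The genes around RAD50 on chromosome 5 were lower as well. Of 33 tested genes within 2 Mb of it on hg19, 26 had a negative log2 fold change in the mean of the clones, with a median of -0.75, beside 48.7% and 0.02 for all genes. Of the 33, 13 passed as lower and 1 as higher in edgeR, beside 8.79% and 7.17% of all genes. With the block 21 were lower and 3 higher, beside 18.2% and 16.3%. IRF1, a transcription factor gene beside RAD50, had -1.51 (edgeR adjusted p = 0.016), and HSPA4, a chaperone gene, -1.15 (0.019). CSF2, which encodes a cytokine, was the one that passed as higher (6.76, edgeR adjusted p = 0.0033). These 3 neighbours were picked after their values had been seen. In each clone the median of the window was close to that of RAD50 itself: -0.75 in ABTr1, -0.65 in ABTr2, -0.73 in ABTr3 and -0.75 in ABTr4. Windows of 1 Mb and 5 Mb gave -0.77 and -0.72. The medians are descriptions without a test.

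Around MRE11A on chromosome 11 the values were higher. Of 39 tested genes within 2 Mb, 33 were above 0, with a median of 0.58. Among all genes 48.7% were below 0, with a median of 0.02. Of the 39, 5 passed as higher and 2 as lower in edgeR, beside 7.17% and 8.79% of all genes. With the block 17 were higher and 3 lower, beside 16.3% and 18.2%. Of these 39, 10 are small nucleolar, small Cajal body and micro RNA genes that lie together. Without them, a choice made after the data had been seen, 23 of 29 were above 0, with a median of 0.49. The medians of all 39 were 0.36 in ABTr1, 0.65 in ABTr2, 0.66 in ABTr3 and 0.90 in ABTr4, so they were above the value of MRE11A itself in each clone. Windows of 1 Mb and 5 Mb around MRE11A gave 0.75 and 0.58. Around NBN the median depended on the window: -1.02 over the 4 genes within 1 Mb, of which 3 passed as lower, -0.18 over 11 genes within 2 Mb and 0.096 over 35 genes within 5 Mb. Around XRCC1 it was 0.13 over 51 genes, -0.11 over 104 and -0.13 over 234. Within 2 Mb of the other genes the medians were -0.15 (RBBP8), 0.37 (EXO1), 0.225 (DNA2), 0.24 (POLQ), -0.18 (RAD52) and 0.18 (LIG3). Those around EXO1, POLQ, RAD52 and LIG3 had the opposite sign to the fitted value of the gene itself.

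**Figure D5:**
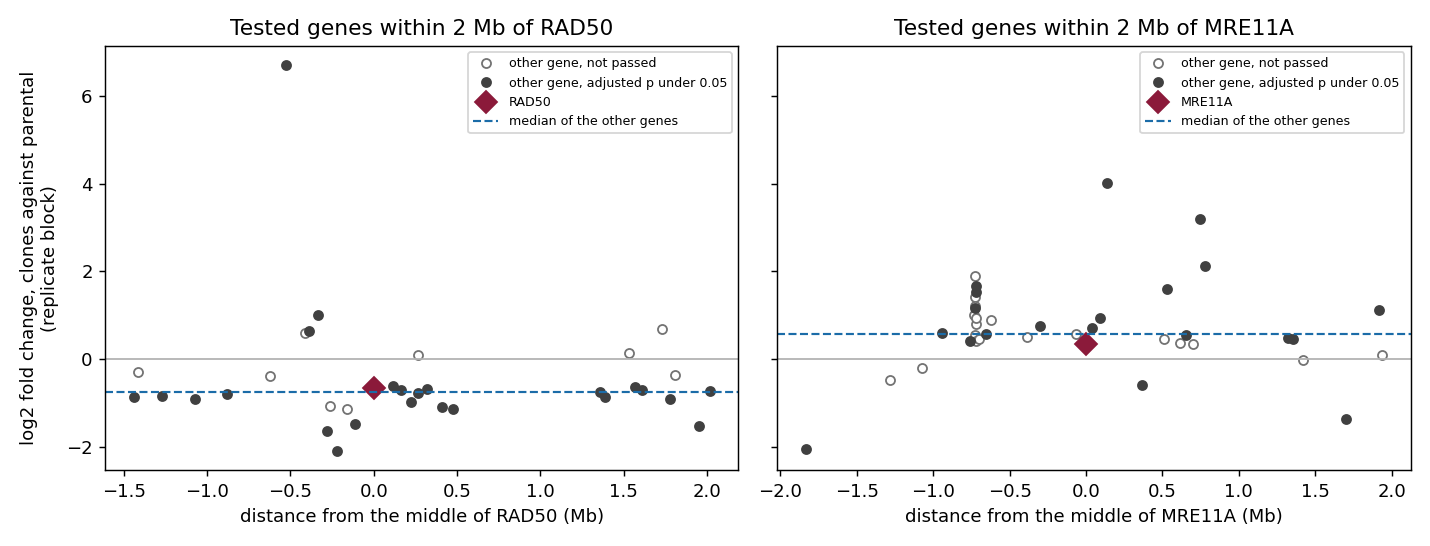
Log2 fold change of the clones against parental in the blocked fit (vertical axis) of tested genes within 2 Mb of RAD50 (left) and MRE11A (right), by distance from the middle of that gene in Mb (horizontal axis), with filled points at an adjusted p under 0.05 and a dashed line at the median of the other genes. The medians are -0.74 around RAD50 and 0.57 around MRE11A.

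The helpers of resection were described from a list of 14 genes with the BLM, WRN and RPA proteins, BRCA1 and ATM. Without the block 2 of 14 passed as higher and 0 as lower, beside 7.17% and 8.79% of all genes. With the block 3 were higher and 0 lower, beside 16.3% and 18.2%. The median was 0.19 in both. ATM, the kinase that MRN activates, had 42.8 and 61.4 CPM in parental and 89.0 to 116.9 in the clones. Its log2 fold change was 1.00 ± 0.21 (edgeR adjusted p = 0.016), and the call was lost without PEO1 replicate 1 (log2 fold change 0.72). ATM starts at chr11:108093559, outside every window around MRE11A. The 14 genes within 2 Mb of ATM had a median of 0.37, and the 11 within 1 Mb had 0.18. RPA2, a subunit of the complex that coats resected strands, had 39.6 and 32.3 CPM in parental and 51.4 to 88.3 in the clones (0.93 ± 0.21, edgeR adjusted p = 0.020). That call was lost without PEO1 replicate 1 (edgeR adjusted p = 0.061), PEO1 replicate 2 (0.16) or ABTr1 replicate 1 (0.050). RMI1, of the complex with BLM, passed with the block (0.72, edgeR adjusted p = 0.026, and 0.20 without). BRCA1, which promotes resection, did not pass (-0.42, edgeR adjusted p = 0.62, and -0.49, 0.087 with the block).

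Of 13 genes that hold resection back, 12 were tested (TEN1 was not). Without the block 1 passed as higher and 0 as lower, beside 7.17% and 8.79% of all genes. With the block 2 were higher and 0 lower, beside 16.3% and 18.2%. The median was 0.08, and 0.06 with the block. CTC1, of the CST complex that fills resected ends back in, had 13.9 and 14.6 CPM in parental and 21.5 to 32.6 in the clones (log2 fold change 0.83 ± 0.21, edgeR adjusted p = 0.029). This call was lost in 7 of 10 fits without 1 library, namely either parental library, ABTr1 replicate 2, ABTr2 replicate 2, either of ABTr3 or ABTr4 replicate 2 (edgeR adjusted p up to 0.14). MAD2L2, of the shieldin complex, was at 0.72 (edgeR adjusted p = 0.054, and 0.016 with the block). TP53BP1, which limits resection, was at 0.29 (edgeR adjusted p = 0.32).

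Of 12 genes listed as partners of alternative end joining, 1 passed as higher and 0 as lower, beside 7.17% and 8.79% of all genes. The 1 that passed, APLF, is known for a role in classical end joining as well. With the block 3 of the 12 were higher and 1 lower, beside 16.3% and 18.2%. The median was 0.01, and 0.04 with the block. APLF, a factor that binds poly(ADP-ribose) at breaks, had 3.67 and 3.56 CPM in parental and 7.62 to 15.8 in the clones (log2 fold change 1.8 ± 0.32, 3.47-fold, edgeR adjusted p = 0.0075, lost without PEO1 replicate 2 at 0.066). PARP1, the drug's target, passed with the block (0.59, edgeR adjusted p = 0.0498) and not without (0.54, 0.42). Its value without the block ran from 0.092 without PEO1 replicate 2 to 1.14 without PEO1 replicate 1. The blocked call of PARP1 was not refitted without single libraries. HELQ, a helicase, was higher with the block (0.58, edgeR adjusted p = 0.034, and 0.095 without), and LIG1, the replicative ligase, was lower with it (-0.59, 0.025, and 0.38 without). PARP1 and LIG1 were also higher in the libraries numbered 1, by 0.78 and 0.92 on the log2 scale (edgeR adjusted p = 0.0060 and 0.0021).

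Of 5 partners of RAD52 in single-strand annealing, 1 passed as lower and 0 as higher, beside 8.79% and 7.17% of all genes. With the block 1 was lower and 1 higher, beside 18.2% and 16.3%. The median was 0.32 in both. MSH3, which recognises loops and helps trim flaps, had 45.5 and 45.9 CPM in parental and 17.9 to 26.5 in the clones. Its log2 fold change was -1.10 ± 0.19 (edgeR adjusted p = 0.0071), and the call was lost without PEO1 replicate 2. MSH3 starts at chr5:79950467, outside every window around RAD50. The 21 genes within 2 Mb of MSH3 had a median of -0.48, and the 13 within 1 Mb had -0.42. ERCC4, a subunit of the flap nuclease, passed with the block (0.68, edgeR adjusted p = 0.015, and 0.12 without). ERCC1, its partner, was at 0.06 (edgeR adjusted p = 0.89). In the proliferation list 0 of 12 passed without the block, where MKI67 was at -0.998 (edgeR adjusted p = 0.34) and PCNA at 0.19 (0.81), and MKI67 was lower with the block (-0.96, 0.0038).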

How the data were processed

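Polyadenylated RNA of parental PEO1 and 4 veliparib-resistant clones was sequenced in 10 libraries, 2 per group. The deposited table holds raw counts of reads per gene. The submitters' processing notes name TopHat2 2.0.14, featureCounts 1.4.6 of Subread and the build hg19. How strand and multiply mapped reads were handled is not given in the sources used here, and the kit does not mark strand. Sample titles, whose clone numbers differ from those in the descriptions, set the groups. The design text speaks of more samples than the 10 libraries analysed here.

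The filter of edgeR 4.0.16 left 16490 genes. TMM factors and quasi-likelihood tests gave each group its own mean (residual degrees of freedom 5), and p-values were adjusted by Benjamini-Hochberg across the 16490 genes, with a threshold of 0.05. CPM and RPKM were computed from the deposited counts and gene lengths with TMM factors, and SE is the error of the fit. Deviations of libraries with the same number correlated at 0.348 to 0.808 over the 10 group pairs (threshold 0.1), so the numbers were taken as pairs, and a fit with a replicate block (residual degrees of freedom 4) was set beside the results it changed. The biological coefficient of variation was 0.368, and 0.234 with the block.

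The 10 genes, the lists and the tests were chosen with earlier results of these data known. Named were the 10 genes, BRCA1, TP53BP1, PARP1, ERCC1, MKI67 and PCNA in any case, and up to 4 genes per list with the smallest adjusted p among those that passed with or without the block. Alternatives were DESeq2 1.42.0, limma-voom (limma 3.58.1), RLE factors, library size alone, the table without a filter, leaving out each library, the compared groups alone, the clone as the unit and libraries of 1 number. Alternatives of the blocked fit, the comparison of the numbers and the windows around MSH3 and ATM were added after the data had been seen. The tests without the block were also run on simulated counts. These held no difference between the replicate numbers, and no result here rests on them. Scripts ran in R 4.3.3 and Python 3.11.15, with figures by matplotlib 3.10.9.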

Additional observations from a re-analysis of the deposited data

How the results depend on the processing

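The depth of 20640602 to 55488566 reads per library left at least 269 reads in every library for each gene, and the precision of the tests is limited by 2 libraries per group. The count of genes passing in the mean of the clones was 1, became 3 with the replicate block, stayed at 1 with DESeq2, RLE factors and the libraries numbered 2, and was 0 with limma-voom, library size alone, no filter, the clone as the unit and the libraries numbered 1. Without 1 library at a time it was 0 to 1. In single clones it was 0, and with the replicate block 3, 1, 3 and 3 in ABTr1, ABTr2, ABTr3 and ABTr4, and 1 with DESeq2 in ABTr1 and in ABTr3. It stayed at 0 in the other settings, and among the clones in all. With the block and without 1 library at a time the counts were 2 to 3 in the mean, 0 to 3 in ABTr1, ABTr2 and ABTr3, 0 to 2 in ABTr4 and 4 to 8 between the numbers. Library size alone moved the median of all genes to 0.26 from 0.02 and the calls to 1762 higher and 981 lower from 1182 and 1449. In that scaling the blocked RAD50 and NBN calls were lost (edgeR adjusted p = 0.059 and 0.12), and MRE11A (0.0085) and RAD52 (0.017) passed as higher. The changes of sign that follow were of values that did not pass with all libraries and TMM factors, and their cause was not tested. Among them RBBP8 in the blocked mean passed as lower without PEO1 replicate 1 (edgeR adjusted p = 0.0205) and was above 0 without PEO1 replicate 2. With library size alone EXO1 was at 0.089 and POLQ at 0.21 (0.10 and 0.037 with the block), and with the clone as the unit at 0.045 and 0.17. In the libraries numbered 1 alone RBBP8 was at 0.049, DNA2 at -0.052, POLQ at 0.23 and ERCC1 at -0.036. Without 1 library at a time the log2 fold changes in the mean ran from -0.35 to 0.79 for DNA2, -0.66 to 0.69 for EXO1, -0.41 to 0.47 for POLQ, -0.61 to 0.12 for LIG3, -0.021 to 1.0 for RAD52, -0.096 to 0.19 for ERCC1, -1.62 to 0.058 for MKI67 and -0.18 to 0.66 for PCNA. In the blocked fit they ran from -0.040 to 0.38 for DNA2, -0.63 to 0.22 for POLQ and -0.67 to 0.048 for RBBP8. MRE11A ran from -0.17 to 0.20 in ABTr1 (-0.0097 to 0.094 with the block) and from -0.14 to 0.36 in ABTr2, and RAD50 between the numbers from -0.15 to 0.089.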
